A study of Mus musculus with 26 samples.

Results

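Gene expression in mouse heart was compared 48 h after transverse aortic constriction (TAC) with that 48 h after sham surgery. The arrays were those titled 48 h TAC (5 arrays) and 48 h sham (4 arrays), which made 9 of the 26 arrays of the series. TAC narrows the aortic arch with a suture, which raises the pressure that the left ventricle must work against, whereas sham animals have the operation without the constriction. The other arrays came from hearts at 10 d (4 TAC, 4 sham) and 3 wk (5 TAC, 4 sham), each with sham arrays of its own. The labels name total RNA of mouse heart and give no strain, sex, age, heart chamber or pooling, and nothing in them ties an array to an animal of its own. The p-values therefore measure only the spread between these arrays.

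A heart muscle cell that is stretched by load turns on a set of transcripts within hours to days. Among them are the natriuretic peptides, hormones that lower blood volume, and fetal or skeletal muscle isoforms of contractile proteins. The calcium-activated phosphatase calcineurin, its transcription factor NFAT, and the factors GATA4, SRF and TEAD are known regulators of this response in heart muscle. Non-muscle cells of the loaded heart take part through cytokines, matrix metalloproteinase inhibitors and, later, collagen made by fibroblasts, while genes for burning fatty acids are known to be turned down as hypertrophy proceeds.

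All 9 arrays shared 1 scan day, and their median intensities lay between 740.8 and 815.6. Pearson's r across probe sets was 0.939 to 0.961 between arrays of one group and 0.936 to 0.965 between arrays of different groups, where probe sets are not independent replicates. The 3′ to 5′ signal ratio, a sign of RNA integrity, differed by -0.01 for Gapdh and by 0.08 for Actb on the log2 scale (TAC minus sham, two-sided exact permutation p = 0.786 and 0.611). Heart muscle markers were high on every array: log2 intensity ran from 16.67 to 17.27 in TAC and from 16.86 to 17.19 in sham arrays for Myh6, the alpha myosin heavy chain, and from 17.03 to 17.80 in TAC and from 17.17 to 17.58 in sham arrays for Tnni3, cardiac troponin I. TAC replicate 4 stood apart in atrial markers. The 9 measured atrial markers summed to an intensity of 341194 on TAC replicate 4 and to 16259 to 42100 on the other TAC arrays, against 12805 to 27700 on the sham arrays.

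Of 7297 probe sets tested, 4 were called at 48 h (0.0548%) by limma at a Benjamini-Hochberg adjusted p under 0.05, and all 4 were higher in TAC. They measured Nppb, Itgav, Cav3 and Perp. By gene, each represented by its brightest tested probe set, 3 of 5564 were called (0.0539%). An unadjusted p under 0.05 was reached by 450 probe sets (6.17%) and 358 genes (6.43%), of which 209 were higher (3.76%) and 149 lower (2.68%) in TAC. The median 95% confidence interval of a log2 change reached 0.36 to either side of it, so that smaller differences were mostly not detectable with this number of arrays. That interval is not adjusted for the number of tests, so 0.36 is not the limit for a call. Larger differences also failed the adjusted test, such as Acta1 at 0.77 (limma adjusted p = 0.127) and Timp1 at 2.07 (0.191). The probe set nearest to the threshold without passing was not assigned to a single gene (1.34, limma adjusted p = 0.0829).

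Nppb, which encodes brain natriuretic peptide, the hormone that ventricular muscle releases under stretch, rose 3.40-fold. Its log2 intensity was 17.24, 16.28, 16.05, 16.61 and 16.29 in the TAC arrays, against 14.28, 14.89, 15.08 and 14.65 in the sham arrays. The lowest TAC array lay well above the highest sham array, and TAC replicate 1 was the highest. The log2 change was 1.77 (SE 0.20, 95% interval 1.36 to 2.17, limma adjusted p = 1.28e-05), and it was 1.58 without TAC replicate 1 and 1.88 without sham replicate 3, the extremes when each array was left out in turn. RNA of whole tissue was measured, so more cells of a type and more RNA per cell cannot be told apart here or for any gene below.

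Itgav encodes integrin alpha V, which pairs with several beta subunits to bind vitronectin and fibronectin and takes part in the activation of TGF-beta. The log2 intensity was 12.72, 12.90, 12.75, 13.05 and 12.99 in TAC arrays, against 12.06, 12.36, 12.31 and 12.30 in sham arrays. No TAC array lay below a sham array. The rise was 1.54-fold (log2 0.62, SE 0.11, adjusted p = 0.0283). The name of this probe set carries the suffix that the array's maker gives to probes shared within a sequence family, and the other tested Itgav probe set read -0.03. Itgav was also called at 3 wk (log2 0.40, adjusted p = 0.041).

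Cav3 encodes the muscle caveolin, which shapes the flask-like pits of the muscle membrane and when mutated causes muscle disease. One of its probe sets read 13.19, 13.02, 13.33, 13.27 and 13.02 in TAC arrays, against 12.70, 12.66, 12.24 and 12.76 in sham arrays. The groups did not overlap, and the rise was 1.49-fold (log2 0.58, SE 0.10, adjusted p = 0.0283). The brighter Cav3 probe set, which represents the gene here, differed by 0.24 (SE 0.15, adjusted p = 0.865), and its arrays overlapped.

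Perp, a membrane protein that is both a target of p53 and a part of desmosomes, the junctions that hold heart muscle cells together, rose 1.36-fold. The TAC arrays read 14.22, 14.26, 14.14, 14.17 and 13.97, against 13.58, 13.84, 13.64 and 13.76 in the sham arrays. The groups did not overlap and each spanned a narrow range (log2 change 0.45, SE 0.08, adjusted p = 0.0319). At 10 d and 3 wk Perp read -0.13 and -0.05, and the difference of its TAC effect between 48 h and those times missed the threshold (0.58, adjusted p = 0.0564 against 10 d, and 0.50, adjusted p = 0.0936 against 3 wk).

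The calls of Itgav, Cav3 and Perp were less firm than that of Nppb. With only the 9 arrays of 48 h in the fit, Nppb alone was called, and adjusted p was 0.162 for Itgav and 0.355 for both Cav3 and Perp. Without TAC replicate 4 again Nppb alone was called (adjusted p = 0.113 for each of the other 3), although their log2 changes were 0.58, 0.55 and 0.44. Leaving out sham replicate 3 gave a count of 2, of which only 1, Nppb, was among the original 4. Leaving out sham replicate 4 or either of the first 2 TAC arrays gave 2, both among the original 4. Without sham replicate 1 or without TAC replicate 3 the count stayed at 4, but only 2 of the original calls were kept. Leaving out TAC replicate 5 gave 8, with all 4 kept.

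**Figure D1:**
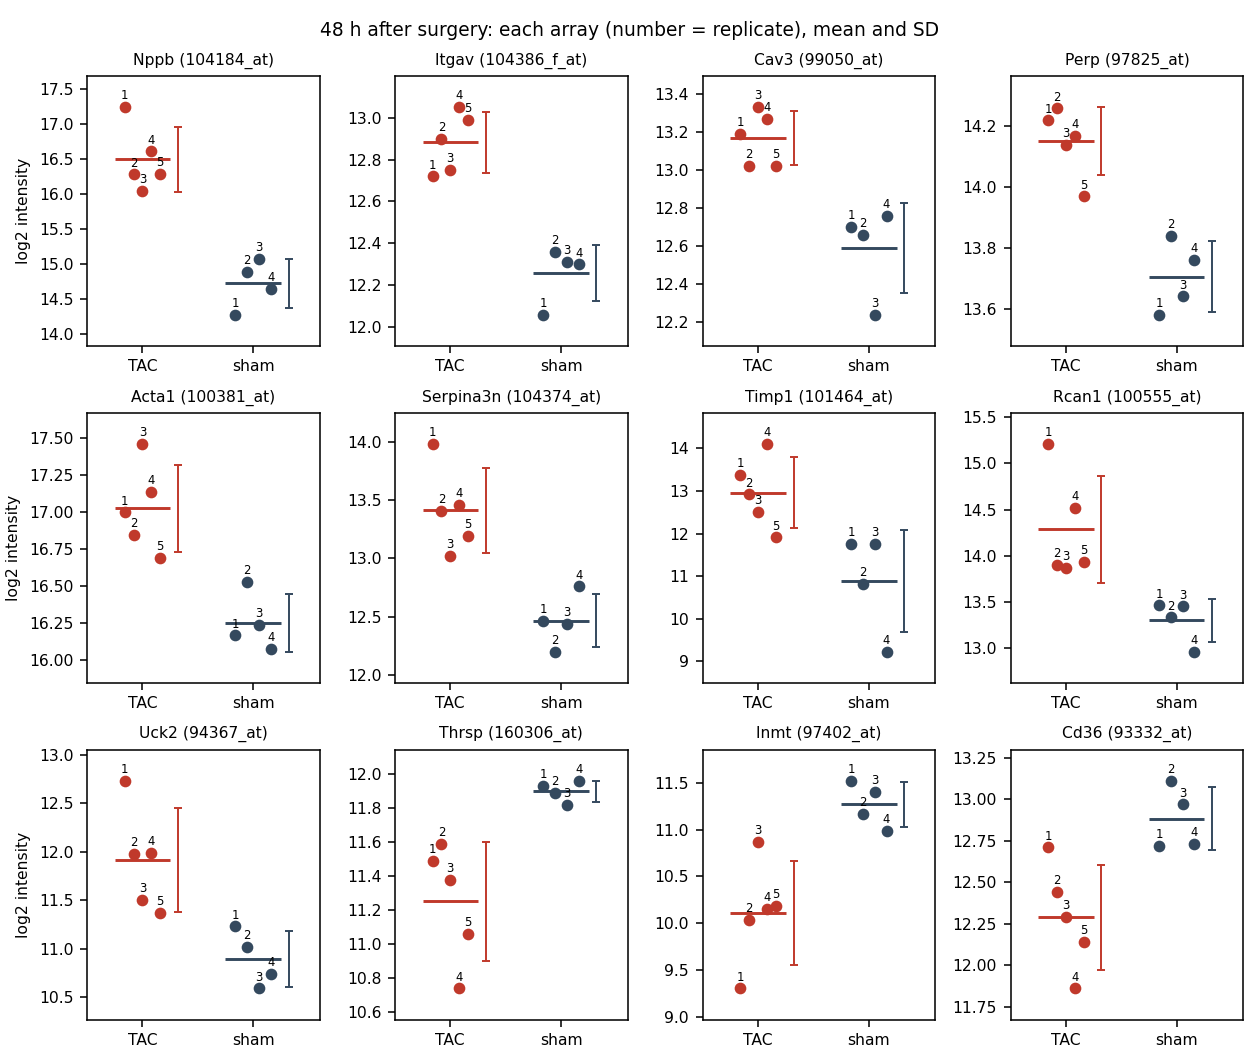
Log2 intensity of 12 genes on each 48 h array, TAC on the left of each panel and sham on the right, with replicate numbers, the group mean (horizontal line) and its SD (bar); the vertical axes differ between panels. In each panel the 5 TAC arrays lie on one side of the 4 sham arrays, above them for the first 9 genes and below them for Thrsp, Inmt and Cd36.

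The stretch of DNA just upstream of the start site is shown for the called genes found in the RefSeq promoter table (build GRCm38.p6) and for Acta1, the named gene next nearest to the threshold, since GATA and TEAD sites near the start are known features of load-responsive promoters. Each window runs 5′ to 3′ on the gene's strand from 250 bases before to 30 bases after the start. Of the 5 genes looked for, 4 were found, and Perp is named only. Capitals mark matches on either strand. The motifs searched were the M-CAT element that TEAD factors bind, with the letters CATTCC. The GATA element was searched as AGATAA. The AP-1 element was searched as TGANTCA. The CArG box, which SRF binds, was the last. The windows lie at chr4:147985650-147985929, forward strand for Nppb, chr2:83724147-83724426, forward strand for Itgav, chr6:112459255-112459534, forward strand for Cav3 and chr8:123894746-123895025, reverse strand for Acta1.
Nppb: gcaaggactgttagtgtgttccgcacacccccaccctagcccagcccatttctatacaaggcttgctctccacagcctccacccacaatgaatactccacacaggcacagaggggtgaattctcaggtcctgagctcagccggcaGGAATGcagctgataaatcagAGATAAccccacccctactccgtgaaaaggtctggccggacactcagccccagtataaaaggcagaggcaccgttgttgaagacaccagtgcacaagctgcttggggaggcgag
Itgav: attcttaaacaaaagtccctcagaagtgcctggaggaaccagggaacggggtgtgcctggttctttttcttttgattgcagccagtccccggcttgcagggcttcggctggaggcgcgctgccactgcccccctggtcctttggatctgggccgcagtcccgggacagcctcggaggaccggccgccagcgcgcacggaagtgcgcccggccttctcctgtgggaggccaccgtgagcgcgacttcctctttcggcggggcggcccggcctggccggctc
Cav3: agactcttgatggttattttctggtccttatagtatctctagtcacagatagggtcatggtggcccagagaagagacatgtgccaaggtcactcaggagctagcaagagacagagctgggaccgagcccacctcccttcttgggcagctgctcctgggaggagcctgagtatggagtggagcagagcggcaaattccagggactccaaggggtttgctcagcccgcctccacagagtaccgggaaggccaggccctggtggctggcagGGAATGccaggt
Acta1: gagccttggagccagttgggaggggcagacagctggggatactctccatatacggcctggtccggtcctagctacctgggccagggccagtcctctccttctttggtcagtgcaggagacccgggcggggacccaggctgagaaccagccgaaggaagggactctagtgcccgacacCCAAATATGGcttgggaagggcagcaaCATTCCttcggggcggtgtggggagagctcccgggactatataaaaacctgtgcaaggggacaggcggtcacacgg
The Nppb window held 1 M-CAT match, starting at position -105 on the reverse strand, and 1 GATA match at -84. The Acta1 window held 1 CArG box at -73 and 1 M-CAT match at -46. The Cav3 window held 1 M-CAT match 18 bases past the start, and the Itgav window held none of the 4 motifs. No 2 matches overlapped. Of all 32851 promoters in the table over the same length, 13.9% held an M-CAT match, 10.7% the GATA match, 7.46% the AP-1 match and 1.56% a CArG box. A match describes the letters of the window and was not tested as a site.

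Beyond the called probe sets, the genes farthest apart were taken from those with an unadjusted p under 0.01 and no overlap of TAC and sham arrays, of which 33 read higher and 23 lower in TAC. The 12 largest differences each way are described as values, since apart from Nppb none passed the adjusted test. Over all tested genes, 138 had no overlap (2.48%), of which 68 lay wholly above sham (1.22%) and 70 wholly below it (1.26%). Without TAC replicate 4 these counts were 80 and 101, and without TAC replicate 1 they were 94 and 118.

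Acta1, skeletal alpha actin, the isoform that adult heart muscle makes again under load, read 17.00, 16.85, 17.46, 17.14 and 16.69 in TAC arrays, against 16.17, 16.53, 16.24 and 16.08 in sham arrays. The log2 difference was 0.77 (SE 0.17, adjusted p = 0.127). It passed the threshold with quantile normalization (0.61, adjusted p = 0.0173), cyclic loess normalization (adjusted p = 0.0263) and scan day as a block (adjusted p = 0.0348), and without TAC replicate 5 (0.86, adjusted p = 0.0481). Acta1 was called at 10 d and at 3 wk, at 1.07 both times.

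Rcan1, an inhibitor of calcineurin whose own transcript calcineurin induces, read 15.21, 13.90, 13.87, 14.52 and 13.93 in TAC arrays, against 13.46, 13.33, 13.45 and 12.96 in sham arrays. TAC replicate 1 lay far above the other TAC arrays, and the log2 difference was 0.99 (SE 0.27, adjusted p = 0.22), or 0.76 without that array. Uck2, a kinase of the pyrimidine salvage pathway that turns uridine and cytidine into their nucleotides, read 12.73, 11.98, 11.50, 11.99 and 11.37 in TAC arrays, against 11.23, 11.02, 10.59 and 10.74 in sham arrays. TAC replicate 1 was again the highest. The log2 difference of Uck2 was 1.02 (SE 0.24, adjusted p = 0.131), and it passed with the replicate number as a block (1.16, adjusted p = 0.0132) and without TAC replicate 5 (1.16, adjusted p = 0.0481). Both genes were called later, Rcan1 at 1.38 at 10 d and 1.19 at 3 wk, and Uck2 at 1.13 and 1.16.

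Serpina3n, an acute phase inhibitor of serine proteases, read 13.98, 13.41, 13.02, 13.46 and 13.19 in TAC arrays, against 12.46, 12.20, 12.44 and 12.76 in sham arrays (log2 difference 0.95, SE 0.21, adjusted p = 0.131). It passed with scan day as a block (adjusted p = 0.03). Timp1, the tissue inhibitor of metalloproteinases that cytokines of the interleukin 6 family induce, read 13.37, 12.92, 12.51, 14.10 and 11.91 in TAC arrays, against 11.76, 10.81, 11.75 and 9.23 in sham arrays. The groups came close, at 11.91 and 11.76, and sham replicate 4 was far below the rest (log2 difference 2.07, SE 0.51, adjusted p = 0.191, and 1.52 without that array). Fgl2, a fibrinogen-like protein with prothrombinase activity, read 10.88 to 11.40 in TAC arrays, against 10.00 to 10.34 in sham arrays (0.89, SE 0.21, adjusted p = 0.131).

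Of the rest, Adam19, a membrane metalloproteinase that sheds neuregulins, read 12.05, 11.09, 10.50, 11.20 and 10.95 in TAC arrays, against 10.12, 10.41, 10.49 and 10.00 in sham arrays (0.90, adjusted p = 0.22). The lowest TAC array barely cleared the highest sham array. Ifrd1, a transcriptional co-regulator, differed by 0.78 (adjusted p = 0.315) and Hira, the chaperone that places histone H3.3, by 1.72 (adjusted p = 0.347). Itga5, the alpha subunit of the fibronectin receptor, read 10.41, 9.70, 9.86, 9.80 and 8.46 in TAC arrays, while all 4 sham arrays sat at the floor of 7.39 (20th percentile of all values), so that its difference of 2.26 (adjusted p = 0.22) depends on the floor, being 2.92 with the floor at the 5th and 0.68 with it at the 40th percentile. Pam, the enzyme that amidates peptide hormones and is abundant in atrial granules, read 8.69, 9.77, 9.90, 9.52 and 8.94 in TAC arrays, against 7.39, 7.55, 7.45 and 7.39 in sham arrays, with 2 of these at the floor (1.92, adjusted p = 0.22, and 1.88 without TAC replicate 4). This difference too was set by the floor, being 2.45 with the floor at the 5th and 0.38 with it at the 40th percentile, and with the higher floor that of Hira was 0.60. Pam is also 1 of the 9 atrial markers. Among these 12 genes TAC replicate 1 was the farthest from sham in 9.

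Among the 12 genes lower in TAC, Thrsp, the thyroid hormone responsive protein of fat synthesis, read 11.49, 11.59, 11.38, 10.74 and 11.06 in TAC arrays, against 11.93, 11.89, 11.82 and 11.96 in sham arrays (-0.65, SE 0.15, adjusted p = 0.131). Cd36, which carries long-chain fatty acids into heart muscle, read 12.71, 12.44, 12.29, 11.86 and 12.14 in TAC arrays, against 12.72, 13.11, 12.97 and 12.73 in sham arrays. The highest TAC array, at 12.71, nearly met the lowest sham array, at 12.72, and the difference was -0.60 (SE 0.16, adjusted p = 0.22). Pex11a, which promotes the division of peroxisomes, read 10.87, 10.92, 10.90, 9.36 and 9.84 in TAC arrays, against 11.31, 11.13, 11.11 and 11.22 in sham arrays. TAC replicates 4 and 5 lay far below the other arrays (-0.81, adjusted p = 0.22, and -0.56 without TAC replicate 4). Npc1, the lysosomal cholesterol transporter, differed by -0.49 (adjusted p = 0.315).

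Inmt, a methyltransferase of small amines, read 9.30, 10.03, 10.87, 10.15 and 10.18 in TAC arrays, against 11.52, 11.17, 11.40 and 10.99 in sham arrays (-1.16, SE 0.28, adjusted p = 0.191). Tspyl4, a nucleosome assembly family protein, read 9.89 to 10.19 in TAC arrays, against 10.53 to 11.09 in sham arrays, with each group in a narrow range (-0.70, SE 0.16, adjusted p = 0.131). Egf (-1.18), Cblif, the cobalamin-binding intrinsic factor (-1.08), Ulk2, a kinase that starts autophagy (-0.63), Lgals4, a galectin (-0.61), Cd59b, an inhibitor of complement (-0.53), and Srp9, a part of the signal recognition particle (-0.52), had adjusted p from 0.22 to 0.573. The difference of Egf was -0.62 with the floor at the 40th percentile. That of Cblif, whose lowest TAC array was 7.69, lay between -1.23 and -0.59 over the alternatives other than leaving out 1 array. In this direction TAC replicate 4 was the farthest from sham in 5 of the 12 genes and TAC replicate 1 in 1.

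Most of the 24 genes kept their direction later. Of the 12 higher genes, 10 were also higher at 10 d and 10 at 3 wk, and limma called 5 at 10 d (Nppb, Uck2, Rcan1, Adam19 and Acta1) and 4 at 3 wk (Uck2, Rcan1, Fgl2 and Acta1), where it called 5.03% and 4.82% of all genes. Of the 12 lower genes, 10 and 9 were also lower, and 1 was called at 10 d (Lgals4) and 4 at 3 wk (Inmt, Lgals4, Cd59b and Npc1). Hira, Itga5 and Pam read higher at 48 h and lower at 10 d or 3 wk, Hira at -1.10 and -0.26. Tspyl4 and Cblif read lower at 48 h and higher at both later times, Tspyl4 at 0.10 and 0.05, and Ulk2 read 0.09 at 3 wk. For none of the 24 was the difference of the TAC effect between 48 h and either later time called. For Nppb, whose change was 0.79 at 10 d and 0.48 at 3 wk, it was 0.98 against 10 d (adjusted p = 0.181) and 1.29 against 3 wk (adjusted p = 0.0717).

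**Figure D2:**
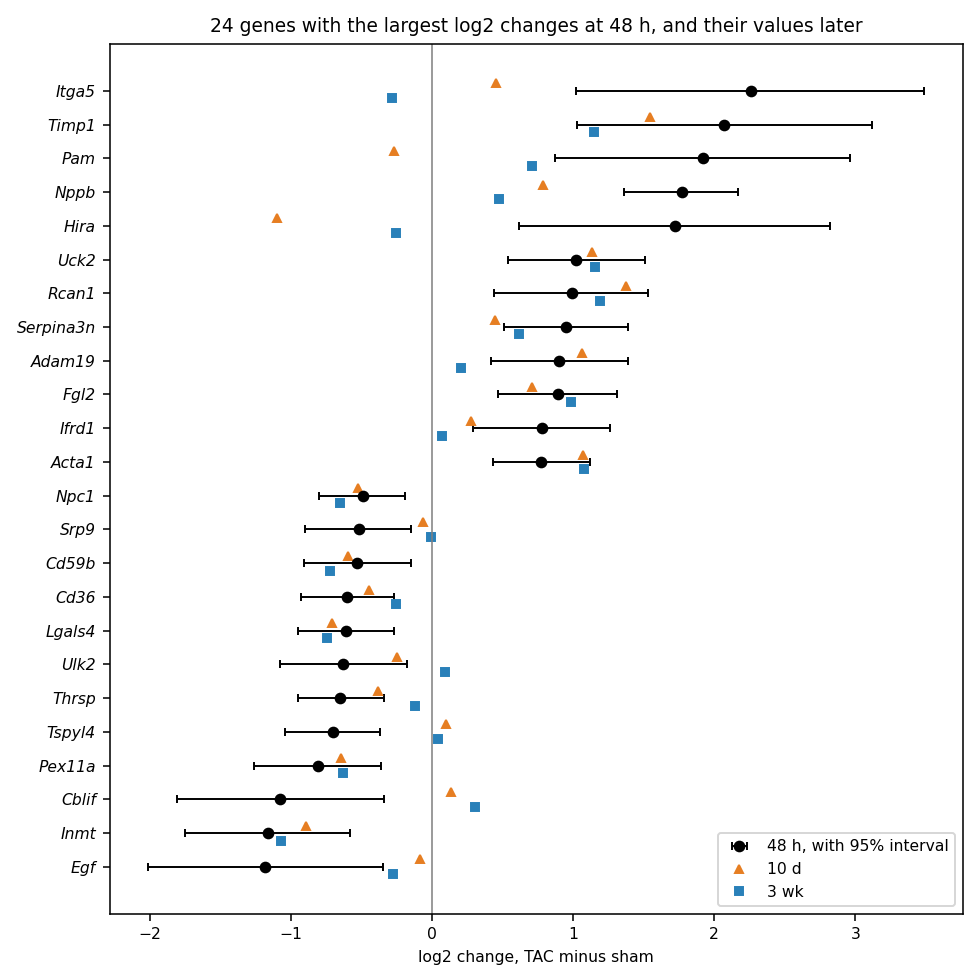
Log2 change (TAC minus sham) of the 12 genes with the largest positive and the 12 with the largest negative difference at 48 h among those without overlap and with an unadjusted p under 0.01, with 95% intervals (circles), and the changes of the same genes at 10 d (triangles) and 3 wk (squares). Uck2, Rcan1 and Acta1 lie between 0.77 and 1.38 at all 3 times, whereas Hira, Pam and Itga5 lie at 1.72 or above at 48 h and at 0.71 or below later.

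Among genes that load is known to induce in heart muscle, several lay above sham. Of 20 measured load-responsive muscle genes, 0 were called, and 4 lay wholly above sham (Rcan1, Acta1, Fhl1 and Enah), against 1.22% of all tested genes, and 0 below. The members were chosen with results of an earlier analysis of these data known, so the share is a description only. The median log2 change was 0.23, against -0.01 over all tested genes, and 16 of 20 were positive, against 47.5% of all. Such a lean was not particular to this list. Of 17 measured sarcomere genes 15 were positive, and of 44 actin cytoskeleton genes 35. Fhl1, a LIM protein of the sarcomere that takes part in stretch sensing, read 15.66, 15.09, 15.59, 15.52 and 14.90 in TAC arrays, against 14.89, 14.50, 14.59 and 14.40 in sham arrays. TAC replicate 5, at 14.90, nearly met the highest sham array, at 14.89, and the difference was 0.76 (SE 0.22, adjusted p = 0.276). Enah, an actin-filament elongation factor at the intercalated disc, differed by 0.52 (SE 0.14, adjusted p = 0.22), and its other probe sets read 0.36 and 0.55. Both Fhl1 (1.24 and 1.31) and, at 3 wk, Enah (0.68) were called later.

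Other familiar signs of hypertrophy did not separate at 48 h. Myh7, the slow beta myosin heavy chain, read 16.93, 15.92, 15.66, 15.79 and 15.90 in TAC arrays, against 15.92, 15.49, 15.86 and 15.64 in sham arrays. TAC replicate 1 stood alone and the other 4 TAC arrays lay within the sham range (0.31, SE 0.21, adjusted p = 0.917, and 0.09 without TAC replicate 1), while Myh7 was called at 10 d (1.02) and 3 wk (1.38). Myh6 differed by 0.01 (95% interval -0.29 to 0.31), Atp2a2, which pumps calcium back into its intracellular store, by -0.07 (-0.36 to 0.23), and Ankrd1, a stretch-responsive nuclear and sarcomere protein, by 0.29 (-0.04 to 0.62). The sign for Myh6 turned with quantile and cyclic loess normalization, with the replicate number as a block and without any 1 of 3 arrays (TAC replicates 3 and 5 and sham replicate 4), and that for Atp2a2 without sham replicate 1. The 17 measured sarcomere genes had a median of 0.15, which was 0.04 without TAC replicate 3, and the 19 calcium handling genes one of -0.02, with 0 called in either list. Of the calcium handling genes 1, Casq1, lay wholly above sham, against 1.22% of all tested genes. Casq1 differed by 0.46 (SE 0.14, adjusted p = 0.315), or 0.34 without TAC replicate 4, and was called at 10 d (0.67) and 3 wk (0.72).

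Nppa, atrial natriuretic peptide, read 13.54, 13.66, 12.88, 16.78 and 13.63 in TAC arrays, against 12.80, 12.45, 13.05 and 13.42 in sham arrays. TAC replicate 4 was far above every other array, TAC replicate 3 lay inside the sham range, and the groups overlapped. The difference of 1.17 (SE 0.59, adjusted p = 0.815) became 0.50 without TAC replicate 4. The same array was far above the rest in 2 atrial myosin light chains, chosen after their values were seen. Myl7 read 7.39, 9.57, 10.46, 16.55 and 13.70 in TAC arrays, against 11.96, 10.02, 12.70 and 12.32 in sham arrays, and Myl4 read 8.61, 9.32, 9.96, 16.83 and 13.17, against 11.21, 9.59, 12.52 and 12.03. Apart from TAC replicate 4 these light chains varied widely in both groups. The part of atrial RNA in the Nppa difference was not tested. Nppb on TAC replicate 4 was 16.61, inside the range of the other TAC arrays, and its change was 1.74 without it.

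**Figure D3:**
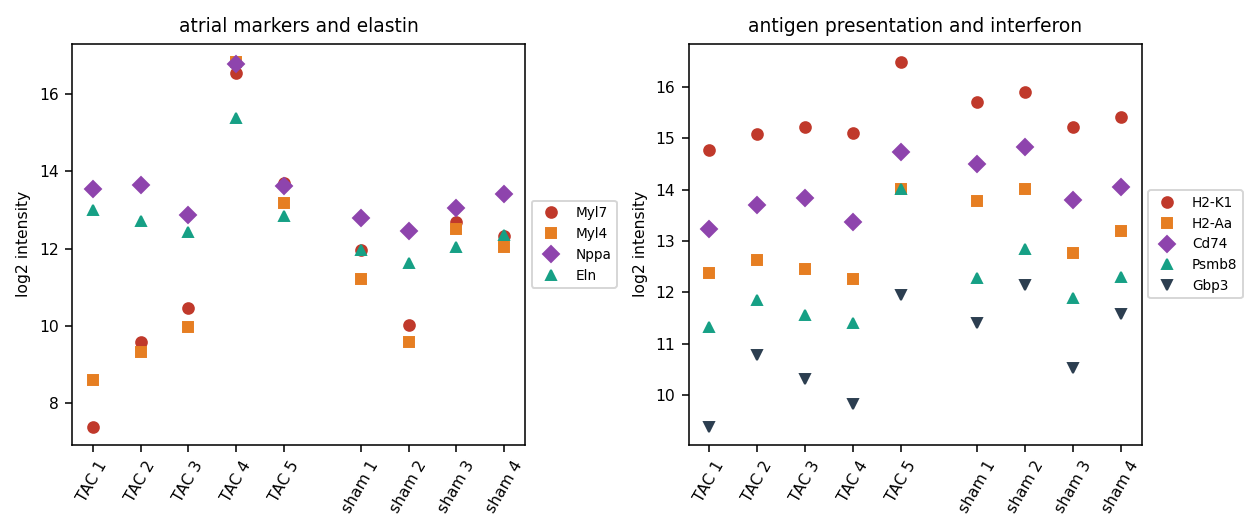
Log2 intensity on each 48 h array, the 5 TAC arrays to the left and the 4 sham arrays to the right, for 3 atrial transcripts and elastin (left panel) and for 5 genes of antigen presentation and interferon response (right panel). TAC replicate 4 is the highest array for the 4 transcripts on the left, and TAC replicate 5 is the highest TAC array for the 5 on the right.

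Genes of cytokine signalling and the acute phase response were another list with several members above sham. Of 26 measured, 0 were called, 4 lay wholly above sham (Timp1, Serpina3n, Ifrd1 and Cd14), against 1.22% of all tested genes, and 0 below. The members of the list, among them the transcriptional co-regulator Ifrd1, were chosen with results of an earlier analysis of these data known. The share is therefore a description only. An unadjusted p under 0.05 was reached by 6, all higher, against 3.76% of all tested genes. The median was 0.20. Cd14, the lipopolysaccharide co-receptor of macrophages, read 12.55, 12.53, 12.46, 12.62 and 12.52 in TAC arrays, against 12.30, 12.20, 11.81 and 12.22 in sham arrays (0.40, SE 0.15, adjusted p = 0.604). The TAC arrays lay close together. Ccl2, the chemokine that recruits monocytes, chosen after its values were seen, read 10.86, 10.34, 9.40, 10.82 and 10.15 in TAC arrays, against 9.24, 9.63, 8.35 and 9.06 in sham arrays (1.24, adjusted p = 0.632), with TAC replicate 3 inside the sham range. The 13 measured macrophage and monocyte markers had a median of 0.17 (0.10 without sham replicate 4) with 12 positive, against 47.5% of all tested genes. Their summed intensity was 54170 to 64708 in TAC arrays, against 48995 to 55168 in sham arrays. Their part in the cytokine list was not tested.

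Collagens leaned upward without passing. Of 15 measured collagen genes, 0 were called, 13 were positive (47.5% of all tested genes were) and the median was 0.35. An unadjusted p under 0.05 was reached by 8, all higher, against 3.76% of all tested genes. Col6a3, a chain of the microfibrillar collagen VI, lay wholly above sham, at 12.78, 12.36, 12.11, 12.66 and 12.11 in TAC arrays, against 11.70, 11.74, 11.93 and 12.09 in sham arrays (0.54, SE 0.18, adjusted p = 0.479). Col1a1, the main chain of fibrillar collagen I, read 14.04, 13.84, 13.05, 14.50 and 13.11 in TAC arrays, against 12.55, 13.21, 13.26 and 13.10 in sham arrays. TAC replicates 3 and 5 lay inside the sham range and TAC replicate 4 was the highest (0.68, SE 0.24, adjusted p = 0.577, and 0.48 without TAC replicate 4). Col3a1 differed by 0.65 (adjusted p = 0.799), or 0.37 without TAC replicate 4. Without that array the list's median was 0.22. At 10 d the list's median was 1.07, with 11 of 15 called, against 5.03% of all tested genes.

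Matrix glycoproteins had a median of 0.16 over 34 genes (0.10 without TAC replicate 1), with 0 called. Eln, elastin of the vessel wall, read 13.01, 12.72, 12.42, 15.38 and 12.85 in TAC arrays, against 11.96, 11.64, 12.03 and 12.36 in sham arrays. TAC replicate 4 was again far above the rest, and the difference was 1.28 (SE 0.50, adjusted p = 0.639), or 0.75 without it, with the remaining TAC arrays still above sham. Ogn, the small proteoglycan osteoglycin, lay wholly below sham (-0.49, SE 0.18, adjusted p = 0.585). Ccn2, the connective tissue growth factor that stretch and TGF-beta induce, read 14.85, 13.47, 13.09, 13.30 and 12.12 in TAC arrays, against 12.18, 12.21, 12.77 and 12.41 in sham arrays. TAC replicates 1 to 4 were above all sham arrays and TAC replicate 5 was below them all (0.97, SE 0.39, adjusted p = 0.691, and 0.60 without TAC replicate 1). Fn1, fibronectin, differed by 0.22 (adjusted p = 0.891) and Postn, periostin, by 0.51 (adjusted p = 0.873), or 0.28 without TAC replicate 4. The 16 fibroblast markers, which include Col1a1 and Postn, had a median of 0.24, or 0.14 without TAC replicate 4. Their summed intensity was 166764 to 219826 in TAC arrays, the highest on TAC replicate 4, against 173167 to 197603 in sham arrays.

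The lists of integrin, junction, caveolar and p53 genes were chosen with results of an earlier analysis of these data known. That they hold Itgav, Cav3 and Perp is therefore not a result about these lists. Few of their further members lay apart from sham. Of 19 integrin and focal adhesion genes 1 was called (Itgav). Itga5 also lay wholly above sham, with all 4 of its sham arrays at the floor. Over all tested genes 0.0539% were called and 1.22% lay wholly above sham. The median of the integrin list was 0.08. Of 19 desmosome and junction genes 1 was called (Perp). Pkp2, plakophilin 2 of the desmosome, read 14.30, 14.04, 13.93, 13.91 and 14.01 in TAC arrays, against 13.31, 13.85, 13.76 and 13.55 in sham arrays, without overlap (0.42, SE 0.12, adjusted p = 0.248). Its other probe set read 0.17, and Pkp2 was called at 10 d (0.45). The list's median was 0.08. Of 17 caveolar and membrane genes, 0 were called by their brightest probe set, the median was 0.03, and Cavin1, which coats caveolae, differed by -0.18, while its other probe set read 0.44. Of 14 targets of p53 and growth arrest genes, Perp was called and the median was 0.02. When each array was left out in turn, the medians of these 4 lists lay between -0.02 and 0.13.

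Stress and metal response lists had medians of -0.10 to 0.04, against -0.01 over all tested genes. Mt1, a metallothionein that binds zinc and that glucocorticoids and metals induce, read 15.46, 15.06, 15.83, 15.06 and 15.22 in TAC arrays, against 14.80, 14.70, 14.90 and 14.51 in sham arrays. The groups did not overlap (0.60, SE 0.14, adjusted p = 0.131). The antioxidant and metal response list had a median of -0.03 over 34 genes. Of these, 2 reached an unadjusted p under 0.05 as higher and 1 as lower. Xbp1, a transcription factor of the unfolded protein response, lay wholly above sham (0.44, SE 0.16, adjusted p = 0.585), as did 1.22% of all tested genes. It belongs to a list of 31 heat shock and endoplasmic reticulum stress genes with a median of 0.04 and 0 called. Of these 31, 5 reached an unadjusted p under 0.05 as higher and 2 as lower, against 3.76% and 2.68% of all tested genes. Fkbp5, a chaperone partner that glucocorticoids induce, read 11.96, 11.70, 11.51, 12.03 and 11.49 in TAC arrays, against 11.04, 11.26, 11.25 and 11.20 in sham arrays (0.55, SE 0.21, adjusted p = 0.609). It was the 1 of 22 glucocorticoid and clock genes without overlap, against 2.48% of all tested genes. Of these 22, 3 reached an unadjusted p under 0.05 as higher and 2 as lower, and the median of that list was -0.10.

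Immediate early genes, transcription factors that respond to stimuli within minutes to hours, did not separate as a list. Of 30 measured, 0 were called and 0 lay wholly on one side of sham, against 2.48% of all tested genes. Of the 30, 23 were positive, against 47.5% of all tested genes. The median was 0.15, which was 0.03 without TAC replicate 1. That array was 0.59 above the sham mean in the median over these genes, against -0.06 to 0.27 for the other TAC arrays. Btg2 and Jund, the members of highest mean, differed by 0.15 and 0.01, and the sign for Jund turned with median centring and without any 1 of 4 arrays.

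Metabolic lists had medians of -0.10 to -0.01 at 48 h, against -0.01 over all tested genes. Fewer fatty acid genes were positive than among all tested genes. Of 39 measured genes of fatty acid uptake and oxidation, 0 were called. Cd36 was the member wholly below sham, against 1.26% of all tested genes. Of the 39, 11 were positive, against 47.5% of all tested genes. A low share was not particular to fatty acid genes. Of 24 cell cycle genes 7 were positive, of 34 antioxidant and metal response genes 12, and of 22 glucocorticoid and clock genes 8. An unadjusted p under 0.05 was reached by 3, all lower, against 2.68% of all tested genes. The median was -0.10, against -0.29 at 10 d. There 9 were called lower, against 5.03% of all tested genes called either way. The 48 genes of the citric acid cycle and respiratory chain had a median of -0.02 with a range of -0.44 to 0.31, 0 called and 0 without overlap. The 25 genes of glycolysis and glucose uptake had a median of -0.01 and 0 called. The summed intensity of the 13 heart muscle markers was 1085779 to 1733321 in TAC arrays, against 1137189 to 1457285 in sham arrays.

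**Figure D4:**
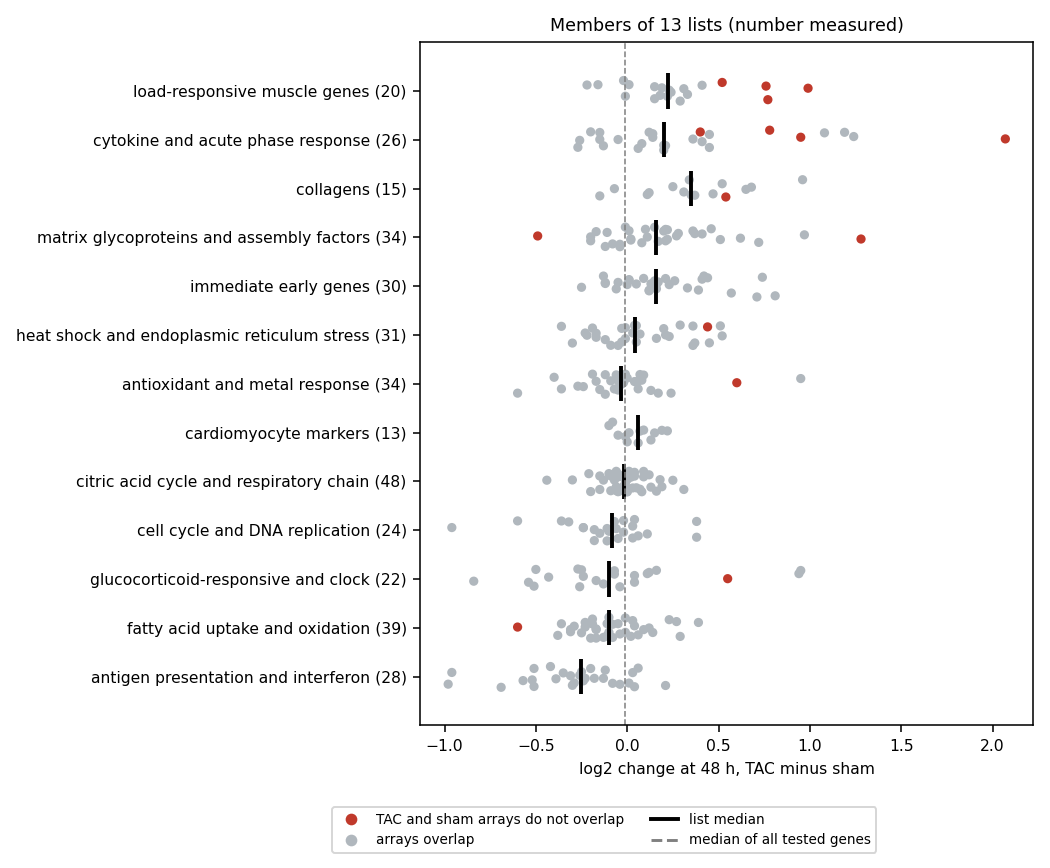
Log2 change at 48 h (TAC minus sham) of each measured member of 13 lists, with the list median (black bar) and the median of all tested genes (dashed line). Dark red points are genes whose TAC and sham arrays do not overlap. They are most frequent among load-responsive muscle genes and cytokine genes, with 4 each, lists chosen with results of an earlier analysis known. They are absent from immediate early genes, cardiomyocyte markers, the citric acid cycle and respiratory chain, cell cycle genes and antigen presentation and interferon genes.

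Antigen presentation and interferon genes had the lowest median of the gene lists, -0.26 over 28 genes, with 0 called. Of the 28, 5 were positive, against 47.5% of all tested genes, and 0 were without overlap, against 2.48% of all. The arrays of the TAC group split. Relative to the sham mean, the median over the list was -0.58, -0.46, -0.42 and -0.61 on TAC replicates 1 to 4 and 0.58 on TAC replicate 5, against 0.07, 0.34, -0.32 and -0.01 on the sham arrays. H2-K1, a class I heavy chain, read 14.77, 15.09, 15.23, 15.11 and 16.49 in TAC arrays, against 15.71, 15.91, 15.22 and 15.42 in sham arrays, so that the TAC group held both the lowest and the highest array. H2-D1 followed the same order of arrays at its ends (-0.25, adjusted p = 0.927). Probes of class I genes are shared among close relatives, so the 2 cannot be fully told apart. The median of the list was -0.48 without TAC replicate 5 and -0.16 without TAC replicate 4. The 5 measured lymphocyte markers summed to 4399 to 7374 in TAC arrays, against 5589 to 7618 in sham arrays.

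The remaining gene lists, apart from the natriuretic peptide system, had 0 called. Their medians were 0.14 for 44 genes of the actin cytoskeleton, 0.08 for 23 matrix proteases and inhibitors (-0.01 without TAC replicate 4), 0.06 for 35 growth factor and TGF-beta genes, 0.06 for 26 translation genes, -0.02 for 31 proteasome and ubiquitin genes, -0.08 for 24 cell cycle genes and -0.08 for 16 ion channels. When each array was left out in turn, these medians lay between -0.16 and 0.17. Among marker lists, all with 0 called, the medians were 0.05 for endothelium (17 genes), 0.10 for smooth muscle and pericytes (11 genes), 0.08 for Schwann cells and neurons (6 genes), -0.10 for erythroid cells (6 genes), -0.21 for adipocytes (7 genes), -0.08 for skeletal muscle (9 genes), -0.14 for neutrophils and mast cells (4 genes) and -0.24 for lung and thymus (4 genes). Several of these turned sign when 1 array was left out. The median was -0.02 for endothelium without sham replicate 4, -0.02 for smooth muscle without sham replicate 1 and 0.02 for adipocytes without sham replicate 3. It was 0.01 for skeletal muscle without TAC replicate 1, 0.02 for neutrophils and mast cells without TAC replicate 4, and 0.06 for lung and thymus without sham replicate 4. The 1 measured mesothelial marker, Upk3b, read 0.30, or -0.02 without TAC replicate 4. The natriuretic peptide system had a median of 0.25 over 5 genes (0.17 without TAC replicate 4 and 0.42 without sham replicate 4), with Nppb called. The atrial list had a median of 0.45 over 9 genes, or -0.09 without TAC replicate 4.

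The comparison with later times asked which TAC effects differed between 48 h and 10 d or 3 wk. The durations do not share arrays. Each known scan day holds arrays of 1 duration, so a scan day effect on a TAC effect cannot be told apart from that of duration. Between 48 h and 10 d the TAC effect differed for 7 of 7297 probe sets (0.0959%), while 770 (10.6%) had an unadjusted p under 0.05. Between 48 h and 3 wk limma called 0 (0%), while 820 (11.2%) had an unadjusted p under 0.05. The counts of calls therefore do not show that 48 h differed more from 10 d than from 3 wk.

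Postn, periostin, a matrix protein of activated fibroblasts, showed the largest of these differences. At 48 h it read 13.02, 12.52, 11.99, 13.48 and 11.73 in TAC arrays, against 11.87, 11.97, 12.32 and 11.98 in sham arrays, with overlap. Its TAC effect was 0.51 at 48 h (0.28 without TAC replicate 4), 2.90 at 10 d and 2.38 at 3 wk, and the difference of 48 h minus 10 d was -2.39 (SE 0.46, adjusted p = 0.0216). Col4a1, a chain of basement membrane collagen, had effects of 0.31, 1.31 and 0.80 (difference -1.0, SE 0.19, adjusted p = 0.0216).

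The endothelial genes Cldn5 and Cd93 rose at 10 d and showed no detectable difference at 48 h. Cldn5, the claudin of endothelial tight junctions, had effects of -0.02 at 48 h, 1.31 at 10 d and -0.15 at 3 wk (difference -1.33, SE 0.23, adjusted p = 0.0106). Cd93, a receptor on endothelial cells, had effects of 0.04, 1.11 and 0.37 (difference -1.07, SE 0.18, adjusted p = 0.0106). H2az1, histone H2A.Z, read lower at 48 h, at 10.87, 10.59, 10.81, 11.02 and 10.88 in TAC arrays, against 11.15, 11.26, 11.15 and 11.40 in sham arrays, with no overlap (-0.41, adjusted p = 0.598), and rose at 10 d by 0.76 (difference -1.16, SE 0.22, adjusted p = 0.0216).

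Art3, a member of the ADP-ribosyltransferase family found in muscle, was the 1 called difference in the other direction. It read 13.60, 13.83, 14.14, 13.63 and 13.76 in TAC arrays at 48 h, against 13.41, 13.62, 13.57 and 13.25 in sham arrays, with slight overlap (0.33, adjusted p = 0.604). At 10 d it fell by 0.79 and at 3 wk by 0.47 (difference between 48 h and 10 d 1.12, SE 0.18, adjusted p = 0.0106). The remaining probe set matches several genes and is not named (difference -0.86, adjusted p = 0.0216). With the replicate number as a block, 0 of these differences were called, and 592 probe sets (8.11%) had an unadjusted p under 0.05.

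**Figure D5:**
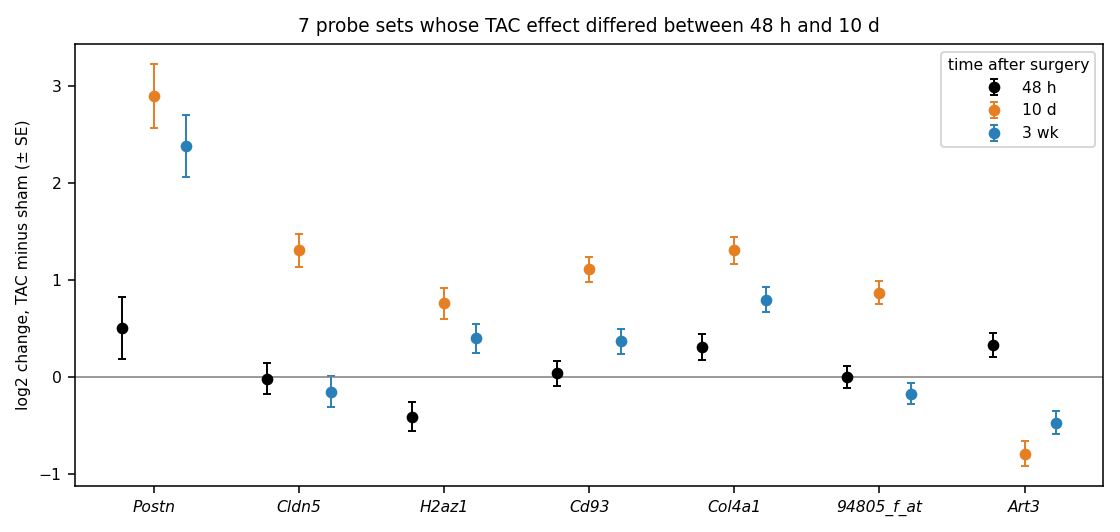
Log2 change (TAC minus sham, with SE) at 48 h, 10 d and 3 wk for the 7 probe sets whose TAC effect differed between 48 h and 10 d by limma. At 48 h these effects lie between -0.41 and 0.51, and at 10 d between -0.79 and 2.90.

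Genes called later leaned the same way at 48 h by small amounts. Of the 169 genes that rose at 10 d, 133 were positive at 48 h (78.7%, against 47.5% of all genes), with a median of 0.15 at 48 h and 0.73 at 10 d, and 15 lay wholly above sham at 48 h (8.88%, against 1.22% of all genes). Of the 111 genes that fell at 10 d, 81 were negative at 48 h (73%, against 52.5% of all genes), with a median of -0.10, and 5 lay wholly below sham (4.5%, against 1.26% of all genes). Of the 163 genes that rose at 3 wk, 116 were positive at 48 h (71.2%, against 47.5%) and 14 lay wholly above sham (8.59%, against 1.22%). Of the 105 that fell at 3 wk, 70 were negative (66.7%, against 52.5%) and 8 lay wholly below sham (7.62%, against 1.26%). These shares are descriptions with no test, since genes are not independent replicates.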

How the data were processed

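Total RNA of mouse heart was measured on MG_U74Av2 arrays, 26 in all and 9 at 48 h. The authors deposited 1 value per probe set and array, an intensity on a linear scale, and the sources used here give no summarisation method. Every array's trimmed mean lies between 2501.81 and 2502.2, so the deposited intensities appear scaled. Values below the 20th percentile (167.9, log2 7.39) were set to it and log2 taken. Differences of genes with arrays near that floor depend on it. Probe sets above the pooled median (880.1) in at least 4 arrays were tested, 7297 of 12488 (66 were controls). Of these, 6584 name 1 gene, 248 several and 465 none. One limma model (limma 3.58.1, R 4.3.3; lmFit, eBayes with intensity trend) gave each of 6 groups a mean. P-values were adjusted by Benjamini-Hochberg over all probe sets, with calls at 0.05. Changes are TAC minus sham on the log2 scale. The main settings follow an earlier analysis of these data, and the members, the 26 gene and 14 marker lists and the rules were chosen with its results known.

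The text names every called probe set, the 12 largest differences each way among genes with an unadjusted p under 0.01 and no overlap, up to 4 members without overlap per list described (or the brightest, up to 2), the 5 largest called differences between times each way, and 15 genes always looked at, among them Nppa, Myh6, Myh7, Ankrd1, Atp2a2, Col1a1, Ccn2 and Postn. Alternatives were quantile, cyclic loess and median normalization, other floors and filters, other variance models, only the 9 arrays, scan day or replicate number as a block, another probe set per gene, an unmoderated test, and each array left out. Counts without overlap were repeated without TAC replicates 4 and 1, chosen after seeing the data. The model was tested on simulated data. Promoters are those of RefSeq, build GRCm38.p6.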

Additional observations from a re-analysis of the deposited data

Results flagged for a closer look

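Of 209 groups of 4 or 5 arrays examined among the named genes, 13 held an array whose gap to its nearest neighbour exceeded Dixon's critical value for the group's range. Chance alone flags about 1 in 20 groups.

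TAC replicate 4 gave 5 of these. It was the highest TAC array for Nppa at 16.78 (the next at 13.66), Eln at 15.38 (13.01), Upk3b at 11.45 (10.07) and Casq1, the calcium store protein calsequestrin 1, at 15.35 (14.88), and the lowest for Rag1 at 9.41 (10.03). TAC replicate 5 was the highest TAC array for H2-K1 at 16.49 (15.23), H2-D1 at 15.92 (15.01) and the brighter Cav3 probe set at 13.87 (13.45). TAC replicate 1 was the highest TAC array for Myh7 at 16.93 (15.92). Among sham arrays, replicate 1 was the highest for Eng, endoglin, at 15.06 (14.56), replicate 2 the highest for Hira at 8.87 (7.71), replicate 3 the lowest for Eif3a, a translation initiation subunit, at 10.79 (11.03), and replicate 4 the lowest for Fgl2 at 10.00 (10.31).

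By limma, the TAC effect at 48 h minus that at 10 d differed for 7 probe sets. These differences were -2.39 for Postn, -1.33 for Cldn5, -1.16 for H2az1, -1.07 for Cd93, -1.0 for Col4a1, -0.86 for a probe set that matches several genes and 1.12 for Art3, with adjusted p of 0.0106 (Cldn5, Cd93 and Art3) or 0.0216 (the other 4).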

How the results depend on the processing

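The call of Nppb held in 24 of 25 alternatives and was lost in the unmoderated test. Cav3 was called in 15 of 24, Itgav in 14 of 25 and Perp in 13 of 25. The count of 4 at 48 h was 1 with median centring, without an intensity trend and with only the 9 arrays. With the replicate block it was 2, of which 1 was among the 4. The unmoderated test called 0 (373, or 5.11%, at an unadjusted p under 0.05). When each array was left out, the count ran from 1 (without TAC replicate 4) to 8 (without TAC replicate 5). It was 2 without any of sham replicate 3, sham replicate 4, TAC replicate 1 and TAC replicate 2. Without sham replicate 3 only 1 of the original calls was kept. The count was 4 without sham replicate 1 or without TAC replicate 3, with 2 of the original calls kept. The 7 differences between 48 h and 10 d became 25 with the filter at the 70th percentile, 4 without an intensity trend, 34 with array weights and 0 with the replicate block, and 6 to 17 with 1 array left out, with 15 without sham replicate 1, 11 without TAC replicate 1 and 17 without TAC replicate 4. The count for 48 h against 3 wk was 2 with scan day as a block and 0 to 1 with 1 array left out. Itgav read -0.03 when represented by its probe set of largest interquartile range. The cause of these shifts was not tested.

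Same-numbered TAC and sham arrays did not deviate together (correlations -0.05, -0.13, -0.02 and -0.09), so the numbers were not taken to pair them. In the replicate block TAC replicate 5 has no sham partner and adds nothing to the 48 h effect. The number of arrays limits precision. The changes of Itga5, Pam, Hira and Egf, which lie near the floor, shrink as the floor is raised. Cblif also has a TAC array near the floor, at 7.69.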

Other observations

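Clock genes differed among the 48 h TAC arrays. These genes were chosen after their values were seen, and none was called at 48 h. Arntl, an activator of the clock, read 9.71, 8.87, 8.91, 10.80 and 10.66 in TAC arrays, against 9.30, 8.40, 8.90 and 8.82 in sham arrays, with TAC replicates 4 and 5 the highest (0.94, adjusted p = 0.712). Dbp, an output gene whose daily peak falls at another time than that of Arntl, read 10.64 and 10.00 on TAC replicates 4 and 5 and 11.07 or more on the other TAC arrays, against 11.58 to 12.28 in sham arrays (-0.84, adjusted p = 0.824). Nr1d2, a repressor of Arntl, read 11.89, 12.19, 12.45, 11.58 and 11.15 in TAC arrays, against 12.46, 12.37, 12.42 and 12.33 in sham arrays (-0.54, adjusted p = 0.674), with the same 2 TAC arrays the lowest. In scan order TAC replicates 4 and 5 were at positions 2 and 3 of the 9 arrays and TAC replicates 1 to 3 at positions 7 to 9. The sources used here give no time of day for tissue collection.

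Mt2, the second metallothionein, read 14.90, 14.14, 14.25, 13.79 and 13.19 in TAC arrays, against 13.05, 12.89, 13.60 and 12.86 in sham arrays. TAC replicate 5 lay inside the sham range (0.95, adjusted p = 0.236).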
